A study of Homo sapiens with 18 samples.

Results

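The small nucleolar and Cajal body RNAs of human embryonic stem cells (hESCs) were taken as all array features whose symbol starts with SNORA, SNORD or SCARNA followed by a number, with host genes left out. This rule gave 163 of 23536 features. They comprised 68 H/ACA box RNAs (SNORA), 71 C/D box RNAs (SNORD) outside the tandem arrays of chromosome 15, 6 SNORD116 and 4 SNORD115 copies from those arrays, and 14 small Cajal body RNAs (SCARNA). RNA was measured on 18 Human Exon arrays from the hESC lines H9, HS360 and HS401 after hypoxia (4% oxygen) or normoxia (21% oxygen). The exposure lasted 2 h, 24 h or 7 d, with 1 array for each line, oxygen level and time point. All cultures were grown on Matrigel in mTeSR1 medium after expansion of the stocks on human foreskin fibroblasts. The 7 d plates had been kept longer after seeding than the 2 h and 24 h plates, so a time point also differs in days in culture. Intensities are listed in the order H9, HS360, HS401 wherever 3 values stand together.

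H/ACA box RNAs pair with ribosomal RNA and direct pseudouridylation by the DKC1 complex, and C/D box RNAs direct ribose methylation by the FBL complex. Small Cajal body RNAs direct the same modifications on spliceosomal RNAs. In human cells most of these RNAs are cut out of the introns of host genes, so that 1 transcription unit can yield a messenger RNA and several guide RNAs. SNORD115 and SNORD116 are repeated many times inside the imprinted transcript SNHG14 on chromosome 15, a locus known from Prader-Willi syndrome, and have no established ribosomal RNA target.

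By the RefSeq spans of GRCh38.p14, 161 of the 163 members lay within another gene. Of these, 123 lay in a protein-coding gene and 38 only in genes of no protein, while 42 lay in ribosomal protein genes. SCARNA2 and SNORD32B lay in none. SNHG14 enclosed 12 members, SNHG1 enclosed 8, TAF1D enclosed 6 and HSPA8 enclosed 3. The spans were compared without strand and the annotation build of the arrays was not known, so the pairing rests on gene identifiers. The members were 61 to 421 nt long, with a median of 125 nt. RNA had been isolated with a silica column kit, and how well such short RNAs were retained, or how much of a feature's signal came from unspliced host RNA, was not tested.

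The members were mostly among the brighter features of the array. In mean log2 intensity 118 members (72.4%) stood above the median feature, although the intensities of different features give no order of abundance. The median member lay at percentile 72.6, with the C/D box RNAs outside the tandem arrays at percentile 83.9, H/ACA box RNAs at 67.1, SNORD116 copies at 58.2 and small Cajal body RNAs at 51.6. The 4 SNORD115 copies lay at a median percentile of 2.3, and 12 members, all 4 SNORD115 copies among them, stood below the lower quartile on every array. Among the brightest were SNORD116-14 (3192 to 5833 over the 18 arrays), SCARNA17 (2665 to 4871), SNORA70 (1992 to 4939) and SNORD26 (2521 to 4973). The members varied more than other features after the group and line means were removed, with a median residual SD of 0.36 against 0.227 over all features on the log2 scale.

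The arrays themselves differed in ways that touched the members. On 5 arrays (hypoxia 2 h and 24 h of H9, normoxia 2 h and both 24 h arrays of HS401) the lower quartile of all features was 5.64 to 5.70 on the log2 scale, against 5.89 to 6.17 on the other 13. Within H9 the median member was at 8.42 and 8.53 on the low arrays and at 8.14 to 8.26 on the others, and within HS401 at 7.92 to 8.33 and 7.66 to 7.79. Cultures with a low lower quartile thus had higher member medians in both lines, and no 7 d array was among them. The 11 measured hESC markers had medians of 9.91 to 10.70 on all arrays. The 10 fibroblast markers, chosen for the feeder cells of the stocks, had medians of 9.43 to 10.70 at 2 h and of 8.03 to 9.01 at 7 d. Whether their signal came from carried-over feeder cells was not tested. All 6 genes chosen as a check of the low oxygen treatment passed the thresholds at each time point, but they were picked with their calls on these arrays known and are no independent check. With 18 arrays in all, precision is limited by their number.

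Hypoxia did not move the members in 1 direction. In pairs of cultures of the same line and time, the median member was lower in hypoxia in HS401 at 2 h (-0.52 on the log2 scale, 137 of 163 members lower) and at 24 h (-0.27, 125 lower), and higher in H9 at 24 h (0.34, 126 higher). In HS360 the median member was at 0.15 at 2 h and -0.12 at 24 h. At 7 d H9 had a median of -0.08 and HS360 of -0.05, while HS401 had 0.18. The same pairs had medians of -0.15 to 0.14 over all features, and in all 9 pairs the sign of the member median was opposite to that of all features. In HS401 at 2 h the normoxia array, and in H9 at 2 h and 24 h the hypoxia array, was among the 5 with a low lower quartile, and the part of this in the shifts was not tested.

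**Figure D1:**
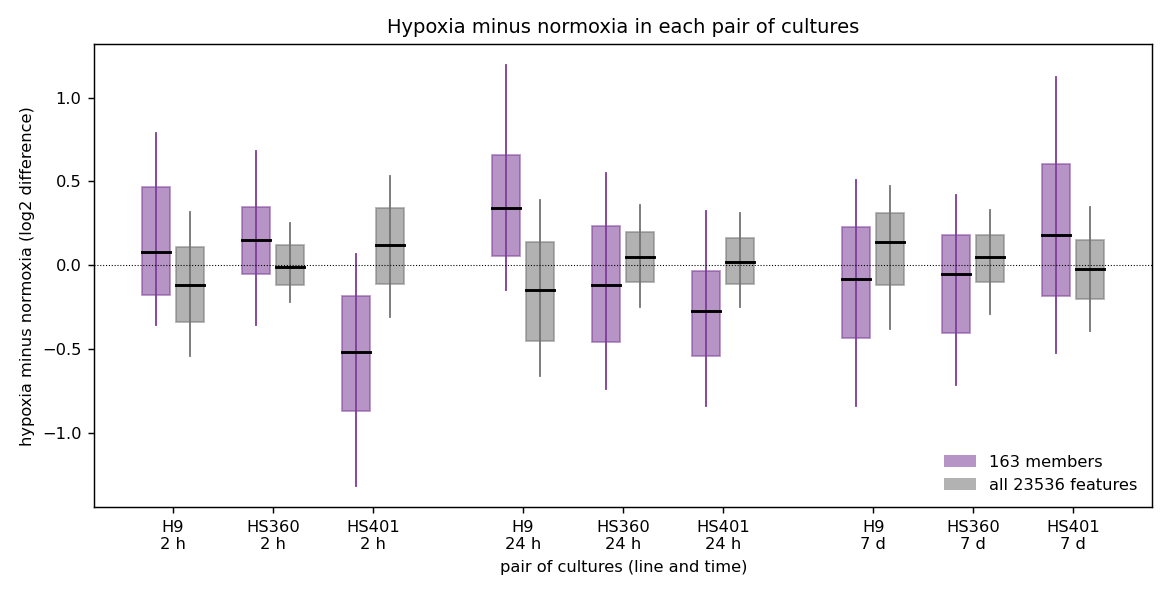
Hypoxia minus normoxia on the log2 scale (y axis) in each of the 9 pairs of cultures (x axis), for the 163 members (purple) and all 23536 features (grey). Boxes span the quartiles, lines the middle 80% and black bars the medians, which for the members run from -0.52 in HS401 at 2 h to 0.34 in H9 at 24 h.

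Averaged over the 3 lines, the median member changed by -0.09 at 2 h, -0.02 at 24 h and 0.01 at 7 d, against 0.00, -0.03 and 0.06 over all features. The thresholds were a fold change over 1.5 together with p below 0.01 in limma before adjustment. By these 1 member (0.613%) was called at 2 h, where 0.0850% of all features were called. At 24 h 2 members (1.23%) were called against 0.421% of all features, and at 7 d 6 members (3.68%) against 0.867%. The members had a larger residual SD than other features, as given above, and its part in these shares was not tested. No member passed an adjusted p under 0.05 at any time point, where 0% of all features passed at 2 h, 0.00425% at 24 h and 0.0212% at 7 d. At an unadjusted p under 0.05 there were 2, 8 and 18 members at 2 h, 24 h and 7 d, against 0.782%, 2.70% and 7.10% of all features. Over the mean of the 3 time points no member was called, against 0.183% of all features, and 11 members (6.75%) had an unadjusted p under 0.05, against 4.30%. These counts moved with the handling of the arrays. Without the 5 arrays of low lower quartile there were 4 calls at 2 h, 10 at 24 h and 11 at 7 d, and leaving out 1 line gave 0 to 4, 0 to 4 and 3 to 5. The 24 h count was 0 without the line as a block, and the 7 d count was 15 from the 7 d arrays alone. For these alternative fits the shares of all features are not given, so their counts describe the handling and not the members. With the line as a block, the p-values measure how far single cultures depart from the group and line means, pooled over all 18 arrays. Each group had 3 lines with 1 culture each.

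SNORA56, an H/ACA box RNA within DKC1 that guides modification of the large ribosomal subunit RNA, rose after 7 d of hypoxia. Its intensities were 534, 369.6 and 372 in hypoxia, against 239, 259.6 and 168 in normoxia. All 3 hypoxia cultures lay above all 3 normoxia cultures. The difference was 0.94 ± 0.17 (SE) on the log2 scale, a fold change of 1.92, with an adjusted p of 0.122 from limma. At 24 h the intensities were 278, 185 and 174 in hypoxia and 221, 228 and 179.8 in normoxia, and at 2 h 199.5, 193 and 136 in hypoxia and 224, 179.8 and 228 in normoxia. The groups overlapped at both of these times, and only the hypoxia cultures at 7 d stood apart from the rest. The call at 7 d was kept under every alternative setting that was run. DKC1, whose protein is the pseudouridine synthase bound by SNORA56 itself, had 695, 765 and 648 in hypoxia at 7 d against 600.5, 792 and 704 in normoxia, a difference of 0.01 ± 0.13.

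SNORD117, a C/D box RNA within the RNA helicase gene DDX39B, also rose at 7 d. It had 755, 326 and 481 in hypoxia against 407, 232 and 195 in normoxia. Each line was higher in hypoxia, although the groups overlapped, H9 being high under both conditions. The difference was 0.89 ± 0.25 on the log2 scale (fold change 1.86, adjusted p = 0.413 from limma). DDX39B had 3420.5, 2937 and 3083 in hypoxia against 3397, 2759 and 3148 in normoxia, which differed by 0.02 ± 0.10. The call on SNORD117 was lost with arrays centred on their medians, without the line as a block, with the line as a random block, and without H9 or HS360.

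SNORD14D, a copy of U14 that takes part in processing and methylation of the small ribosomal subunit RNA, fell at 7 d. It had 228, 234 and 224 in hypoxia against 302, 545 and 286 in normoxia. The hypoxia cultures lay close together and below all normoxia cultures. The difference was -0.66 ± 0.20 on the log2 scale (fold change 0.633, adjusted p = 0.442 from limma), and without HS360, whose normoxia value was the highest, it was -0.38. SNORD14C from the same gene, HSPA8, had 144, 204 and 126 in hypoxia against 229, 474 and 174 in normoxia, a difference of -0.78 with an unadjusted p of 0.0231 in limma, and its groups overlapped although each line was lower in hypoxia. SNORD14E had 580.0, 530.1 and 402 in hypoxia against 491, 781 and 404 in normoxia, and these groups overlapped too. SNORD14A and SNORD14B, U14 copies within the ribosomal protein gene RPS13, were at 0.23 ± 0.18 and 0.24 ± 0.40. All hypoxia cultures of SNORD14A lay above its normoxia cultures at 7 d, as in 10.7% of all features. The call on SNORD14D was lost without any 1 of the lines, with each line and time pair as a block, and with the lower quartile of each array as a covariate (-0.57).

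**Figure D2:**
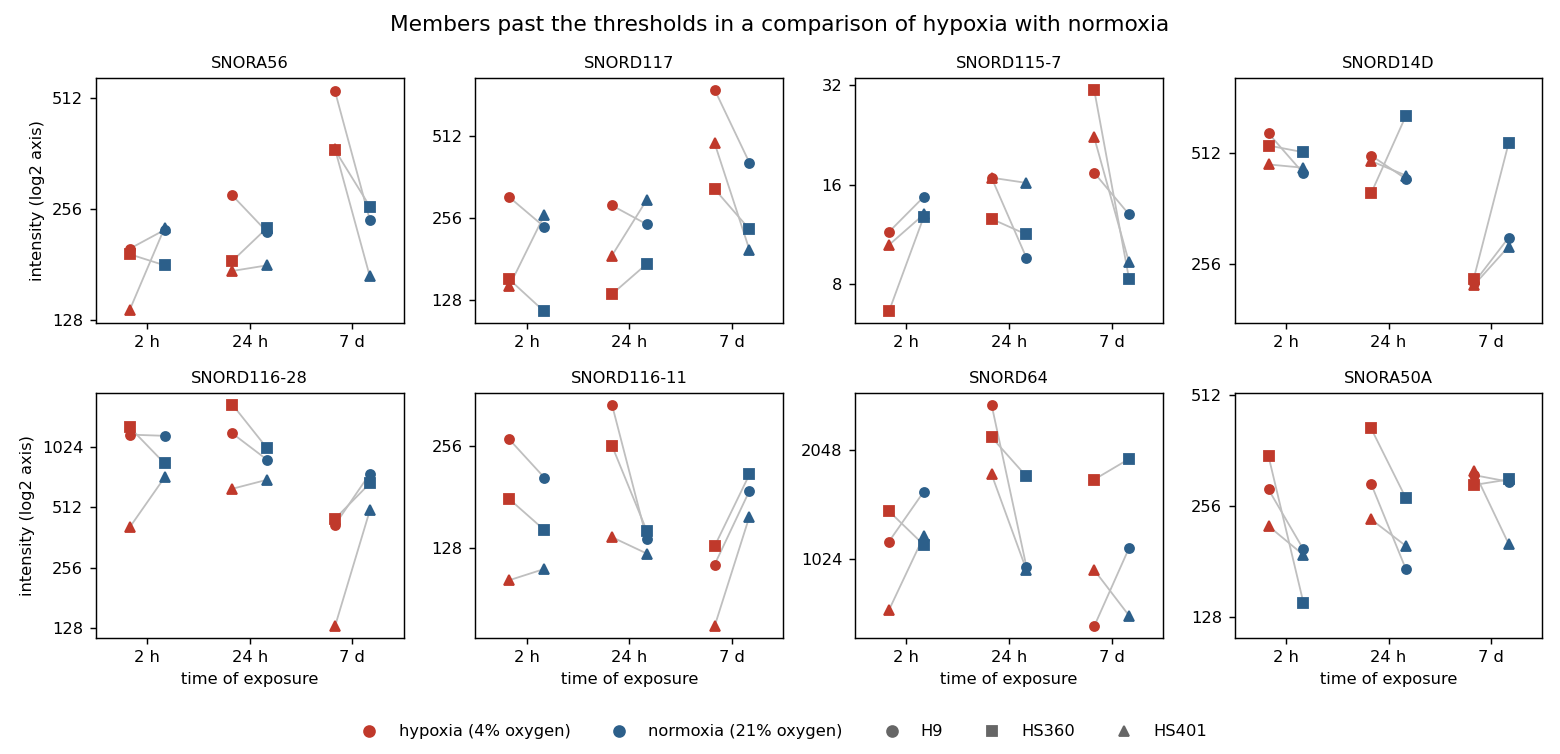
Intensity on a log2 axis (y axis) by time (x axis) for the 8 members past the thresholds in a comparison of hypoxia (red) with normoxia (blue). Each symbol is 1 array, its shape gives the line, and grey lines join the 2 cultures of a line; the 3 hypoxia values of SNORA56 at 7 d (369.6 to 534) lie above the 3 normoxia values (168 to 259.6).

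The promoters of the genes enclosing SNORA56 and SNORD14D are shown because these members moved oppositely at 7 d while HSPA8 differed by -0.16 ± 0.11 and DKC1 by 0.01 ± 0.13. The sequences are RefSeq windows of GRCh38.p14, from 250 bases before to 50 bases after the gene start, with HSPA8 at chr11:123062087-123062386 on the minus strand and DKC1 at chrX:154762614-154762913 on the plus strand. Capitals mark matches to GAANNTTC, the core of a heat shock element, which reads the same on both strands.
HSPA8 promoter: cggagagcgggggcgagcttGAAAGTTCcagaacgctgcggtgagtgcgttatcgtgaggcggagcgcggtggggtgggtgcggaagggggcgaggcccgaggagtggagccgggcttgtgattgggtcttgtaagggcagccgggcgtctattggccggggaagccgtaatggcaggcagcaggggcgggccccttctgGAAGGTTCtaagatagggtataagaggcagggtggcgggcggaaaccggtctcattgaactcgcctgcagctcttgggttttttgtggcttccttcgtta
DKC1 promoter: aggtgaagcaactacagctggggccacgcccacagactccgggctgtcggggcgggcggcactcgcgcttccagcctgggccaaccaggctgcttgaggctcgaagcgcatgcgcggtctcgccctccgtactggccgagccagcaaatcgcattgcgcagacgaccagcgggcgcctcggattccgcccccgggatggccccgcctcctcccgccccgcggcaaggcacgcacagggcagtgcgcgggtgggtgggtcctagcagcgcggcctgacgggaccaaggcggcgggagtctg
The HSPA8 window held 2 matches and the DKC1 window none, and 6.77% of 35116 promoter windows held at least 1. Neither window held CACGTG (an E-box, in 7.26% of windows) or ACGTG (the core of a hypoxia response element, in 21.4%, searched on both strands; every CACGTG contains it). These matches describe the letters only.

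The members within SNHG14 gave 5 of the 9 calls at the individual time points. SNORD116-28 fell at 7 d, with 419, 449 and 129.8 in hypoxia against 755, 676 and 495 in normoxia. The groups did not overlap, and the difference was -1.12 ± 0.27 on the log2 scale (fold change 0.459, adjusted p = 0.317 from limma). By line it was -0.85 for H9, -0.59 for HS360 and -1.93 for HS401, and without HS401 it was -0.72 and still called. At 24 h it had 1201, 1675 and 635 in hypoxia against 885, 1009.9 and 704 in normoxia, which overlapped. This call at 7 d was lost only in the fit without the line as a block.

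SNORD116-11 was called in opposite directions at 24 h and 7 d. At 24 h it had 338, 256 and 138 in hypoxia against 136, 144 and 124 in normoxia, a difference of 0.77 ± 0.21 on the log2 scale (adjusted p = 0.889 from limma). H9 and HS360 carried that difference, and HS401 lay within the normoxia values. At 7 d it had 115, 129.8 and 75.6 in hypoxia against 189, 211 and 159 in normoxia, all hypoxia cultures being lower, with a difference of -0.83 ± 0.21 (adjusted p = 0.337 from limma). Without H9 the 24 h difference was 0.49, and the call was lost without H9 or HS360. The 7 d call was lost without HS360 or HS401, and both calls without the line as a block. The H9 hypoxia array and both HS401 arrays at 24 h were among the 5 with a low lower quartile.

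All 6 SNORD116 copies were at or above 0.07 on the log2 scale at 24 h and at or below -0.23 at 7 d in the mean of the lines. SNORD116-25, a dim copy, had 9.6, 26.9 and 19.2 in hypoxia at 7 d against 58.1, 57.7 and 39.1 in normoxia. These groups did not overlap, and the difference of -1.58 ± 0.58 had an unadjusted p of 0.0157 in limma. SNORD116-14, the brightest copy, had 3192, 4771 and 3743 in hypoxia at 7 d against 4771, 5294 and 3641 in normoxia, which overlapped, with a difference of -0.23 ± 0.22. SNORD116-12 and SNORD116-13 were lower in hypoxia in H9 and HS360 and higher in HS401 at 7 d. The copies share most of their sequence and 1 transcript, so they are not independent measurements, and probes may not tell them apart.

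The 4 SNORD115 copies, a set known chiefly from brain, stayed near the bottom of the intensity range. SNORD115-7 was nevertheless called at 7 d, with 17.4, 31.1 and 22.3 in hypoxia against 13.0, 8.3 and 9.3 in normoxia. The hypoxia cultures were all higher, with a difference of 1.20 ± 0.26 on the log2 scale (adjusted p = 0.212 from limma), on a feature below the lower quartile of every array that was not shown to be above background, since no detection call was used. Without HS360 it was 0.84 and the call was lost. The other 3 copies differed by -0.13 to 0.17 at 7 d. SNORD64, an orphan C/D box RNA of the same locus, had 2740.1, 2226 and 1758 in hypoxia at 24 h against 976, 1734 and 955 in normoxia. The lowest hypoxia value stood just above the highest normoxia value, and the difference was 0.91 ± 0.29 (fold change 1.88, adjusted p = 1 from limma). Without the 5 arrays of low lower quartile it was 0.46 and not called, and the call was also lost without H9 (0.62) or HS401. At 7 d SNORD64 had 666, 1698 and 955 in hypoxia against 1098, 1938 and 714 in normoxia, which overlapped. SNHG14 itself was not analysed here. Of the 6 other measured genes of the locus none was called at 7 d, with SNRPN at -0.03 ± 0.16 and SNURF at 0.31 ± 0.21.

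**Figure D3:**
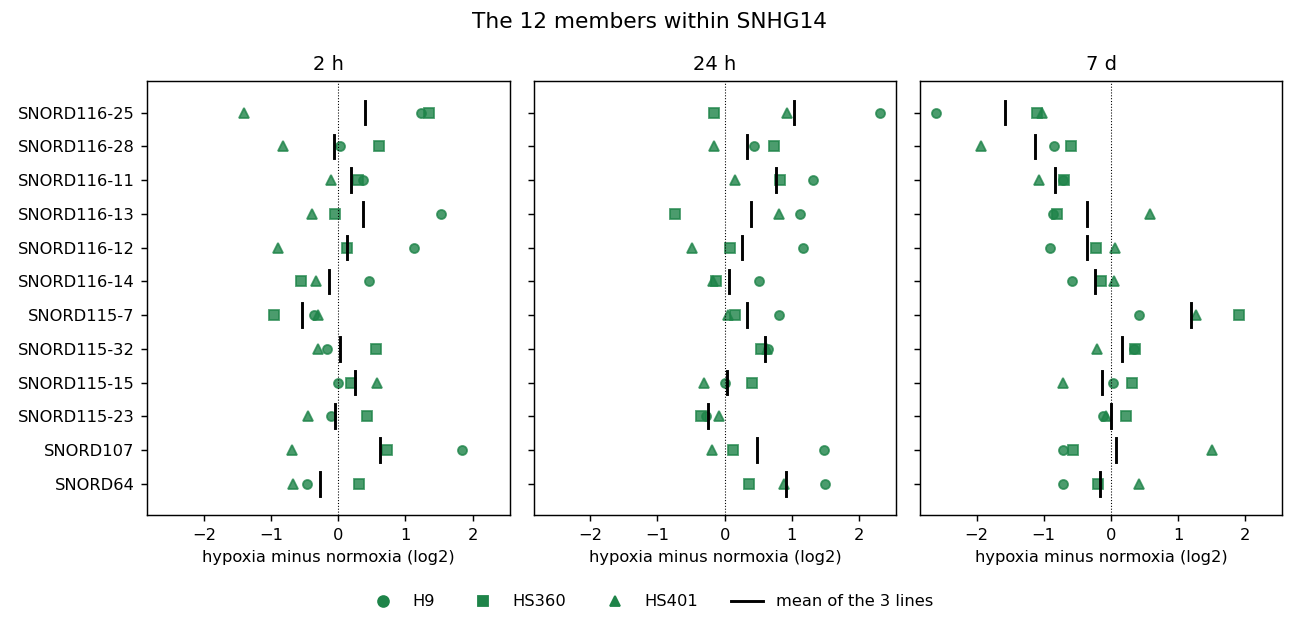
Hypoxia minus normoxia on the log2 scale (x axis) for the 12 members within SNHG14 (y axis), with 1 panel for each time point. Each symbol is 1 line and the black bar is the mean of the 3 lines; the means of all 6 SNORD116 copies are above 0 at 24 h and below 0 at 7 d.

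SNORA50A was the only member called at 2 h. It lies within CNOT1, the scaffold of a deadenylase complex, and had 284, 349.7 and 226 in hypoxia against 195, 140.1 and 189 in normoxia. The hypoxia cultures were all above the normoxia cultures, and the difference was 0.71 ± 0.22 on the log2 scale (fold change 1.63, adjusted p = 1 from limma). It was higher in hypoxia in 8 of 9 pairs over all time points, with a mean difference of 0.49 ± 0.12, below the fold threshold. Without HS360 the 2 h difference was 0.40, and the call was lost without HS360 or H9 and from the 2 h arrays alone. CNOT1 differed by 0.12 ± 0.18 at 2 h.

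Members whose 3 hypoxia values all lay on 1 side of the 3 normoxia values were counted next. At 2 h hypoxia lay wholly above normoxia in 3 members and wholly below in 3, against 1.08% and 0.769% of all features. At 24 h the counts were 4 and 6, against 1.63% and 1.01%, and at 7 d 8 and 6, against 10.7% and 4.03%. The 8 members above at 7 d were a smaller share (4.91%) than the 10.7% of all features.

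The change of the hypoxia effect between time points was tested as an interaction. Between 24 h and 7 d 5 members (3.07%) were called, against 0.433% of all features. The dim SNORD116-25 (-2.60), SNORD116-11 (-1.60) and SNORD116-28 (-1.46) had a lower effect at 7 d, and SNORA56 (0.95) and SNORD117 (1.17) a higher one, on the log2 scale. Between 2 h and 7 d 4 members (2.45%) were called, against 0.446% of all features, and between 2 h and 24 h none, against 0.0892%. In this last comparison 3 members (1.84%) had an unadjusted p under 0.05, against 0.769%. No feature passed an adjusted p under 0.05 in any of these comparisons. Between lines the effect of hypoxia differed at an unadjusted p under 0.05 of limma's F test in 13 members (7.98%), against 1.59% of all features, and the smallest adjusted p was 0.999. SNORD116-28 had the smallest of these p-values, with mean effects of -0.13 for H9, 0.25 for HS360 and -0.97 for HS401. The 5 arrays of low lower quartile lay unevenly across this comparison. They were the hypoxia arrays of H9 at 2 h and 24 h, both HS401 arrays at 24 h and the normoxia array of HS401 at 2 h. Their part in the differences between lines was not tested.

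Fibroblast markers moved with hypoxia at 7 d, when 9 of 10 were higher and COL1A1 and COL3A1 were called. Their median on each array was 8.95, 8.09 and 9.01 in hypoxia and 8.26, 8.14 and 8.03 in normoxia on the log2 scale. The cells behind these markers, and their part in the 7 d results of the members, were not tested. In such bulk samples fewer cells of a type and less RNA per cell cannot be told apart.

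Genes for the proteins that hold or mature these RNAs did not pass the thresholds in hypoxia against normoxia. None of the 4 core proteins of C/D particles was called at any time point, and NOP56 (-0.41 ± 0.15) and NOP58 (-0.44 ± 0.21) were lower in all 3 lines at 7 d. The remaining core genes, FBL (0.11 ± 0.14) and SNU13 (0.04 ± 0.12), were slightly above 0. None of the 4 core proteins of H/ACA particles was called, and NOP10 (-0.27 ± 0.13) was lower in all 3 lines at 7 d. DKC1 was at 0.01 ± 0.13, GAR1 at 0.01 ± 0.14 and NHP2 at -0.10 ± 0.15. Of the 12 assembly factors 10 were below 0 at 7 d and none was called, with a median of -0.15. Of the 8 Cajal body genes 6 and of the 8 genes of end processing and turnover 7 were below 0 at 7 d, both with a median of -0.25 and no call. Over all features the median at 7 d was 0.06.

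The members were set beside the genes that enclose them. At 7 d the median absolute difference was 0.217 for the 118 members with exactly 1 measured enclosing gene and 0.115 for the 79 enclosing genes, on the log2 scale. The median residual SD of the members was also larger than that of all features, as given above, and its part in these medians was not tested. The sign agreed in 58 of these 118 at 7 d, in 77 at 24 h and in 69 at 2 h. Among the enclosing genes HTR2C, the host of SNORA35, was called at 7 d and none at 2 h or 24 h.

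**Figure D4:**
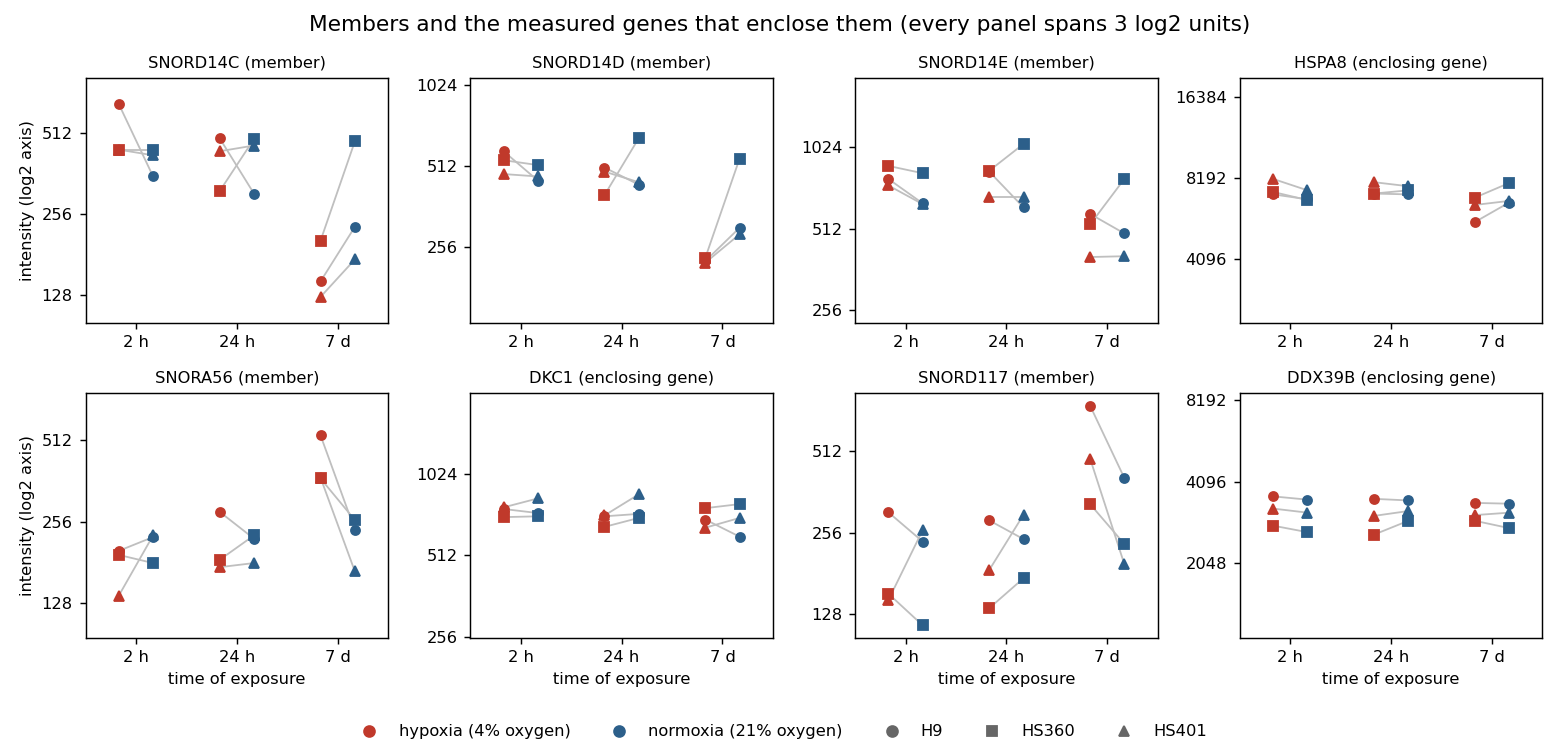
Intensity on a log2 axis (y axis) by time (x axis) for SNORD14C, SNORD14D and SNORD14E with their enclosing gene HSPA8, SNORA56 with DKC1, and SNORD117 with DDX39B. Hypoxia is red and normoxia blue, symbol shape gives the line, and every panel covers the same number of log2 units, so that the spread of the members can be set beside that of the genes; SNORA56 differs by 0.94 at 7 d and DKC1 by 0.01.

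The time points within hypoxia were compared next. From 2 h to 7 d in hypoxia 5 members rose and 8 fell past the thresholds (7.98%), against 4.27% of all features, and 8 of these members, the dim SNORD115-7 among them, had an adjusted p under 0.05 from limma, as had 3.23% of all features. This contrast was added after the data had been seen. In normoxia over the same interval 1 rose and 4 fell (3.07%), close to the 2.62% of all features. From 2 h to 24 h 1 member was called in hypoxia, SNORD64 (1.06, against 0.183% of all features), and none in normoxia (against 0.00850%), where none had an unadjusted p under 0.05 either (against 0.280%).

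All 3 U14 copies within HSPA8, the constitutive member of the HSP70 chaperones, fell with time in hypoxia. SNORD14C had 144, 204 and 126 at 7 d against 653, 443 and 443 at 2 h, and every 7 d culture was below every 2 h culture. The difference was -1.70 ± 0.31 on the log2 scale, to 0.307 of the 2 h level (adjusted p = 0.0108 from limma). SNORD14D had 228, 234 and 224 at 7 d against 580.0, 538 and 478 at 2 h, a difference of -1.21 ± 0.20 (adjusted p = 0.00704 from limma). SNORD14E had 580.0, 530.1 and 402 at 7 d against 781, 873 and 739 at 2 h, a difference of -0.68 ± 0.17 (adjusted p = 0.0431 from limma). All 3 thus separated the time points completely. HSPA8 itself, whose promoter is printed above, had 5634, 6936 and 6517 at 7 d against 7132, 7281 and 8135 at 2 h, also with no overlap, a difference of -0.24 ± 0.11 with an adjusted p of 0.237 from limma. In normoxia the same copies were at -0.60 ± 0.31 (SNORD14C), -0.40 ± 0.20 (SNORD14D) and -0.36 ± 0.17 (SNORD14E) for 7 d minus 2 h, none of them called. The difference between these changes in hypoxia and in normoxia was -1.10 ± 0.44, -0.81 ± 0.28 and -0.32 ± 0.24 for SNORD14C, SNORD14D and SNORD14E, also without a call (adjusted p = 0.997 from limma for each), so the fall was not shown to differ between oxygen levels. In hypoxia the calls on SNORD14C and SNORD14D were kept under every alternative run, and that on SNORD14E was lost without the 5 arrays of low lower quartile, without the block and without HS401.

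Further members fell beside them. SNORD116-28 had 419, 449 and 129.8 at 7 d against 1184, 1287 and 407 at 2 h in hypoxia, lower in each line, with a difference of -1.56 ± 0.27 (adjusted p = 0.0104 from limma). SNORA67, which lies within EIF4A1, had 523, 446 and 315 at 7 d against 1113, 765 and 648 at 2 h, with no overlap, a difference of -0.97 ± 0.21 (adjusted p = 0.025 from limma). SNORD63, within the mitochondrial chaperone gene HSPA9, had 24.8, 17.8 and 33.8 at 7 d against 132, 67.6 and 52.3 at 2 h. Its groups did not overlap either, but the spread was wide and the difference of -1.66 ± 0.54 had an adjusted p of 0.108. SNORA20 within the chaperonin gene TCP1 (-1.07 ± 0.33) and SNORD116-11 (-0.71 ± 0.21) completed the 8. The H9 array at 2 h in hypoxia, the highest of the 2 h values in SNORA67 and SNORD63, was among the 5 with a low lower quartile.

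Among the 5 that rose, SNORA56 had 534, 369.6 and 372 at 7 d against 199.5, 193 and 136 at 2 h in hypoxia. The time points did not overlap, and the difference of 1.27 ± 0.17 had an adjusted p of 0.00444 from limma. SNORD117 rose by 1.38 ± 0.25 (adjusted p = 0.0108 from limma) and the dim SNORD115-7 by 1.31 ± 0.26 (adjusted p = 0.0154 from limma), SNORD115-7 by 0.84 and without a call when HS360 was left out. SNORD5 within TAF1D (0.79) and SNORA71E within SNHG11 (0.67) passed the thresholds but not the adjusted p. Over the same interval all 10 fibroblast markers were lower at 7 d and 7 were called, and 7 of 11 hESC markers were lower and 4 higher (median -0.29), with L1TD1 and GDF3 called lower. Among the particle genes NOP58 (-0.76), 1 of 4 C/D core proteins, the transport adaptor PHAX (-0.70), 1 of 12 assembly factors, and DDX20 (-0.64), 1 of 8 Cajal body genes, were called lower, and none was called higher. The part of these changes in those of the members was not tested.

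In normoxia SNORD43, within the ribosomal protein gene RPL3, was lower at 7 d than at 2 h. It had 1003, 1261 and 765 at 7 d against 2034, 1574 and 1585 at 2 h, with no overlap. The difference was -0.80 ± 0.16 on the log2 scale (adjusted p = 0.0246 from limma), while RPL3 was at 0.35 ± 0.11, the opposite sign. Without HS401 the difference of SNORD43 was -0.67 and the call was lost. SNORD45A within RABGGTB had 282, 422 and 139 at 7 d against 630.3, 584 and 873 at 2 h, also with no overlap, a difference of -1.43 ± 0.37 (adjusted p = 0.0818 from limma), and without HS401 it was -0.81 and not called. SNORD83A (-0.77, also within RPL3) and SNORA74A (-0.67) were called lower and the dim SNORA19 (0.82) higher, each in all 3 lines. The normoxia 2 h array of HS401 was among the 5 with a low lower quartile, and the median difference of the members in HS401 was -0.66 for 7 d minus 2 h on the log2 scale. All 10 fibroblast markers were lower at 7 d in normoxia too and 9 were called, with a median difference of -1.60. The part of either in the changes of the members was not tested.

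The lines were compared over their 6 conditions. Between HS401 and H9 14 members were lower and none higher at an adjusted p under 0.05 and a fold change over 1.5 (8.59%), against 4.02% of all features in either direction, 2.28% being higher and 1.74% lower. The median member was at -0.28 on the log2 scale against -0.04 over all features, and 32 members were lower in HS401 in all 6 conditions, as were 8.75% of all features. Between HS360 and H9 4 members were lower (2.45% against 1.71% of all features). Between HS401 and HS360 7 were lower and 1 higher (4.91% against 4.88%), a share close to the background. Each p-value compares single lines, and so measures only the spread between cultures of a line.

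SNORA64, an H/ACA box RNA within the ribosomal protein gene RPS2, was lower in HS401 and HS360 than in H9. Over the 6 conditions it was 252 to 580.0 in HS401, 443 to 600.5 in HS360 and 815 to 1128 in H9. H9 lay apart from both other lines, which overlapped. HS401 minus H9 was -1.33 ± 0.11 on the log2 scale (adjusted p = 3.33e-06 from limma) and HS360 minus H9 was -0.87 ± 0.11 (adjusted p = 0.000528), lower than H9 in 6 of 6 conditions in both cases.

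SCARNA23 is a small Cajal body RNA within POLA1, the catalytic subunit of DNA polymerase alpha. It was 50.2 to 68.1 in HS401 and 108 to 148 in H9, with no overlap, a difference of -1.14 ± 0.17 (adjusted p = 0.000519 from limma). Here the enclosing gene was called as well. POLA1 was 229 to 430.5 in HS401 and 436 to 962 in H9, at -1.05 ± 0.17 (adjusted p = 0.00122 from limma). In HS360 POLA1 was also lower than in H9 (-0.97 ± 0.17), while SCARNA23 ranged from 74.0 to 171 in HS360 and overlapped with H9. Of the 14 members lower in HS401, SCARNA23 was the only one whose measured enclosing gene was called lower too. SNORD61 within RBMX (-1.09 ± 0.23) and SNORD116-28 (-0.96 ± 0.19) followed in size, and SNORD117 (-0.94 ± 0.18) was the member with the largest difference between HS360 and H9.

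**Figure D5:**
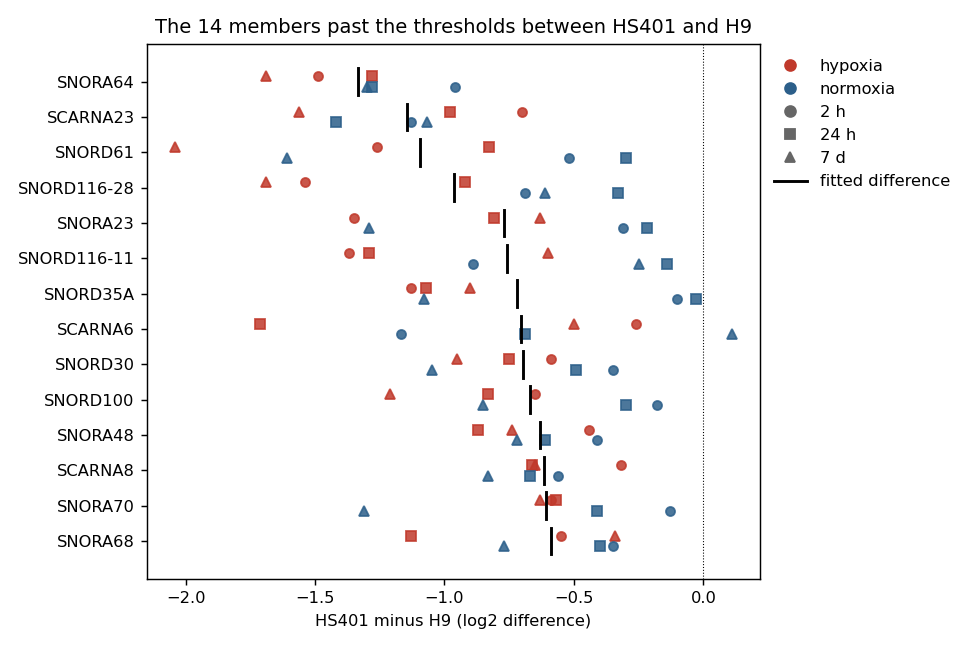
HS401 minus H9 on the log2 scale (x axis) for the 14 members past the thresholds between these lines (y axis), in hypoxia (red) and normoxia (blue) with the symbol shape for the time. Black bars are the fitted differences, from -1.33 for SNORA64 to -0.59 for SNORA68, and all single differences but 1 of SCARNA6 are below 0.

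The counts between lines depended on how the 5 arrays were handled. With the lower quartile of each array as a covariate, 29 members were lower in HS401 than in H9 and 27 lower than in HS360. Without the 5 arrays of low lower quartile the counts were 21 and 17. The shares of all features called in these fits are not given, so the larger counts are not a result about the members. In single conditions of hypoxia the median member of HS401 minus H9 was -0.59 at 2 h, where only the H9 array was low, -0.59 at 24 h, where both were, and -0.13 at 7 d, where neither was. In normoxia it was 0.02 at 2 h and 0.06 at 24 h, where only the HS401 arrays were low, and -0.51 at 7 d, where neither was.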

How the data were processed

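The deposited values were linear intensities that the authors had made from the exon arrays by RMA in Chipster with a custom probe annotation, summarised per Entrez gene. Their log2 values lay on steps of 0.01, and log2 intensity was used throughout. Of 23536 features 20727 had a symbol and 2809 had none, and all were kept in the fit. All 163 members were matched to RefSeq (GRCh38.p14) by identifier. The genome build behind the probe annotation was not given in the sources used here.

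One linear model in limma 3.58.1 (R 4.3.3) held the 6 means of oxygen and time and the line as a fixed block, with 10 residual degrees of freedom and 4.24 prior ones. Line was kept as a block because the arrays of a pair come from 1 line. In 8 of 9 pairs the hypoxia and normoxia arrays deviated together from their group means, with a correlation over 0.1, and the correlations ran from -0.005 to 0.776. Oxygen and time comparisons used a fold change over 1.5 with p below 0.01 before adjustment, line comparisons an adjusted p under 0.05 (Benjamini-Hochberg over all features) and the same fold change. Differences are fitted means with the SE of the fit. The model was tested on simulated data.

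Members and gene lists were chosen with earlier results of these data known. Named members were those the study lists as changed, those past the thresholds in each comparison by size, and the brightest 2 of each class, with their enclosing genes. The time comparisons within hypoxia and the interactions of 2 h with the later times were added after the data had been seen, as were the motifs. Alternatives were the fit without the block, with a random block or with pairs as the block, other normalizations, moderated variances with a trend, a filter on level, the lower quartile as a covariate, leaving out 5 arrays or 1 line, and subsets of the arrays. No 2 arrays were identical, and the highest correlation between arrays was 0.994.

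One host gene of some members is not reported here.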

Additional observations from a re-analysis of the deposited data

Results flagged for a closer look

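The effect of hypoxia differed between time points in 7 members by the test of the difference itself, with a fold change over 1.5 and p below 0.01 before adjustment in limma. From 24 h to 7 d the effect on the log2 scale changed by -2.603 in SNORD116-25, -1.597 in SNORD116-11 and -1.463 in SNORD116-28, and by 0.947 in SNORA56 and 1.167 in SNORD117, in the same direction in all 3 lines. The adjusted p was 0.901 for each, and 0.433% of all features were called in this comparison. From 2 h to 7 d it changed by -1.337 in SNORA19 and -1.017 in SNORD116-11, both with an adjusted p of 0.997, and by 1.21 in SNORA56 and 1.737 in SNORD115-7, both with an adjusted p of 0.957, where 0.446% of all features were called. SNORA19 and SNORD115-7 stood below the lower quartile on every array. SNORD116-25 was dim too, its 7 d values all lying below the lower quartile of their arrays. The 3 hypoxia values of SNORA19 lay below the 3 normoxia values at 7 d. The 3 SNORD116 copies share a transcript and most of their sequence.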

How the results depend on the processing

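Counts of called members are given as count under the alternative, with the reported count in brackets. Without the line as a replicate block they were 0 (2) at 24 h, 3 (5) for 7 d against 2 h in normoxia, 8 (13) for the same in hypoxia, 0 (1) for 24 h against 2 h in hypoxia and 3 (5) for the change of effect between 24 h and 7 d. With a random block they were 1 at 24 h, 2 for 24 h against 2 h in hypoxia and 3 for the change of effect, and with pairs of line and time as the block 4 at 24 h. With arrays centred on the median they were 1 at 24 h and 3 (8) for HS401 against HS360, and over features above the median level 3 for 7 d against 2 h in normoxia. With the lower quartile as a covariate they were 3 (1) at 2 h, 6 at 24 h, 1 (0) over the mean of times, 8 for 7 d against 2 h in normoxia, 3 for 24 h against 2 h in hypoxia, 12 for the change of effect, 29 (14) for HS401 against H9 and 27 for HS401 against HS360. Without the 5 arrays of low lower quartile they were 4 at 2 h, 10 at 24 h, 11 (6) at 7 d, 6 over the mean, 1 (0) for 24 h against 2 h in normoxia, 13 for the same in hypoxia, 2 (4) for HS360 against H9 and 17 for HS401 against HS360. From the arrays of the time point alone they were 4 at 24 h and 15 at 7 d. Within normoxia and within hypoxia, HS360 against H9 gave 0 and 0, HS401 against H9 gave 3 and 4, and HS401 against HS360 gave 4 and 1. The shares of all features under the alternatives are not given, here or below, so these counts are not results about the members. The causes were not tested.

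Leaving out 1 line gave 0 to 4 calls at 2 h, 0 to 4 at 24 h, 3 to 5 at 7 d and 0 to 1 over the mean. It gave 3 to 11 for 7 d against 2 h and 0 to 2 for 24 h against 2 h in normoxia, 8 to 17 and 1 to 4 for the same in hypoxia, and 3 to 7 for the change of effect. Signs turned in 9 cases, none of them a call. SNORA56 at 24 h was 0.02 with centred arrays, and -0.175 to 0.14 when 1 line was left out. Without the 5 arrays the 2 h differences were -0.0577 for SNORD116-11, 0.1897 for SNORD116-28 and 0.2492 for SNORD117. Leaving out 1 line gave -0.405 to 0.31 for SNORD116-28 and -0.25 to 0.375 for SNORD117 at 2 h, and -0.455 to 0.115 for SNORD64 at 7 d. Of the other values for named members, 508 kept their direction and side of the threshold, values that were never called among them. The remaining 116 kept their direction but lost a call.

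Each group had 3 arrays from 3 lines with 1 culture each. No detection call was used here, and 12 members stood below the lower quartile on every array.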
